A study of Homo sapiens with 42 samples.

Results

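The comparison asked whether the difference between YKL at 2 µM and THZ531 was of another size in HAP1 CDK7 C312S cells than in HAP1 WT cells. It is the value (C312S YKL minus C312S THZ531) minus (WT YKL minus WT THZ531), computed for every gene on log2(FPKM + 1). Of the 42 libraries of polyadenylated RNA in the series, 12 enter it, chosen by their labels: 3 of each line with YKL 2 µM and 3 of each line with THZ531, all after 24 h of treatment. HAP1 is a near-haploid human line derived from a chronic myeloid leukaemia. The other line is HAP1 with CDK7 C312S, in which a serine takes the place of the cysteine that covalent CDK7 inhibitors bind, and the labels do not say whether it is 1 clone. THZ531 is a covalent inhibitor of CDK12 and CDK13, and YKL is read here as the compound that the series title calls a selective covalent inhibitor of CDK7. The labels give no dose for THZ531, so doses of the compounds could not be matched. No DMSO library enters the comparison, so a gene higher with YKL than with THZ531 may have risen with YKL or fallen with THZ531.

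CDK7 works in a pair of settings. As the CDK-activating kinase, with cyclin H and MAT1, it phosphorylates the activation loop of the cell cycle kinases. As a part of the general transcription factor TFIIH it phosphorylates the C-terminal domain of RNA polymerase II at promoters, while CDK12 and CDK13, with cyclin K, phosphorylate the same domain during elongation, and loss of CDK12 activity is known to lower long genes of DNA repair. Cells in which the cysteine is replaced are used to ask which effects of a covalent inhibitor need it.

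Values are FPKM as the authors deposited them, with the read depth behind each value unknown. Whether the 3 libraries of each group are separate cultures is not in the labels, so p-values measure a spread between libraries that may be only technical. The sum of FPKM was 530401 ± 4730 (SD, n = 3) in WT with THZ531 and 455948 ± 7010 in WT with YKL, against 567750 ± 6210 and 561440 ± 6920 in C312S. The level of the ERCC spike-in RNAs over that of the genes was 0.22 (log2) higher with YKL than with THZ531 in WT and 0.35 higher in C312S (exact permutation test, two-sided, p = 0.2 and p = 0.1, where 0.1 is the smallest that 3 against 3 allows; adjusted p = 0.2 for both). The SD of this spike-in level between libraries (n = 3) was 0.15 in WT with THZ531 and 0.17 with YKL. In C312S it was 0.21 with THZ531 and 0.12 with YKL. Scaling to the spike-ins carries this spread into every gene, so a call lost with it need not mean a smaller difference. Less RNA per cell and fewer cells cannot be told apart in such bulk libraries. Of 20 markers of blood cells, 6 were at 0 in all 12 libraries, among them SPI1. The summed level of the list ran from 24.4 to 29 FPKM in WT and from 17.8 to 21.5 FPKM in C312S, with GATA2 the highest. Of 18 epithelial and fibroblast markers, 5 were at 0. Their sum was lower in WT with YKL (368 to 376 FPKM) than in WT with THZ531 (439 to 456 FPKM), most of it VIM. In C312S the sum was 353 to 364 FPKM with THZ531 and 343 to 352 FPKM with YKL, below both WT groups. The part of these marker differences in the results was not tested. CDK7 was read in all 12 libraries (42.7, 43.7 and 44.8 FPKM in WT with THZ531 and 28.8, 28 and 31.9 with YKL, and 37.9, 41.1 and 40.6 FPKM in C312S with THZ531 and 32, 30.1 and 33.1 with YKL), and FPKM per gene do not show the substitution itself.

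Of 12816 genes tested with limma, 6246 (48.7%) had a difference between YKL and THZ531 that depended on the line at an adjusted p under 0.05. In 3172 of them (24.8% of those tested) YKL over THZ531 was higher in C312S than in WT, and in 3074 (24%) it was lower. As deposited, differences between the compounds were more frequent in WT, while with scaling to the spike-ins 7673 genes differed in WT and 7840 in C312S. The spike-in counts rest on a single scaling value per library, whose spread stands above. On the deposited scale 8736 genes (68.2%) differed in WT, 693 of them (5.41%) by at least 2-fold on this scale, which is a log2 difference of at least 1. In C312S, 4347 genes (33.9%) differed and 21 (0.164%) by at least 2-fold. Of the 6246 line-dependent genes, 3664 (58.7%) passed the test in WT and not in C312S, and 1608 (25.7%) passed in both lines in 1 direction, 1570 of these with the larger difference in WT. A further 433 (6.93%) passed in C312S and not in WT, 402 (6.44%) passed in both lines in opposite directions, and 139 (2.23%) passed in neither. With spike-in scaling 3842 genes were line-dependent: 1540 passed in WT and not in C312S, 924 in both in 1 direction, 915 in C312S and not in WT, 391 in opposite directions and 72 in neither. The count of 433 was 282 without C312S YKL replicate 2, and the count of 402 was 259 without C312S THZ531 replicate 2, 252 without C312S YKL replicate 1 and 243 without its replicate 2. Across genes, Spearman's rho of the difference with the GC content of the transcripts was 0.16 in WT, 0.32 in C312S and -0.022 for the line dependence, over 12154 genes with a known content that share the libraries. On the deposited scale, the scatter of the lines' differences is a cloud that is wide along the WT axis and narrow along the other.

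**Figure D1:**
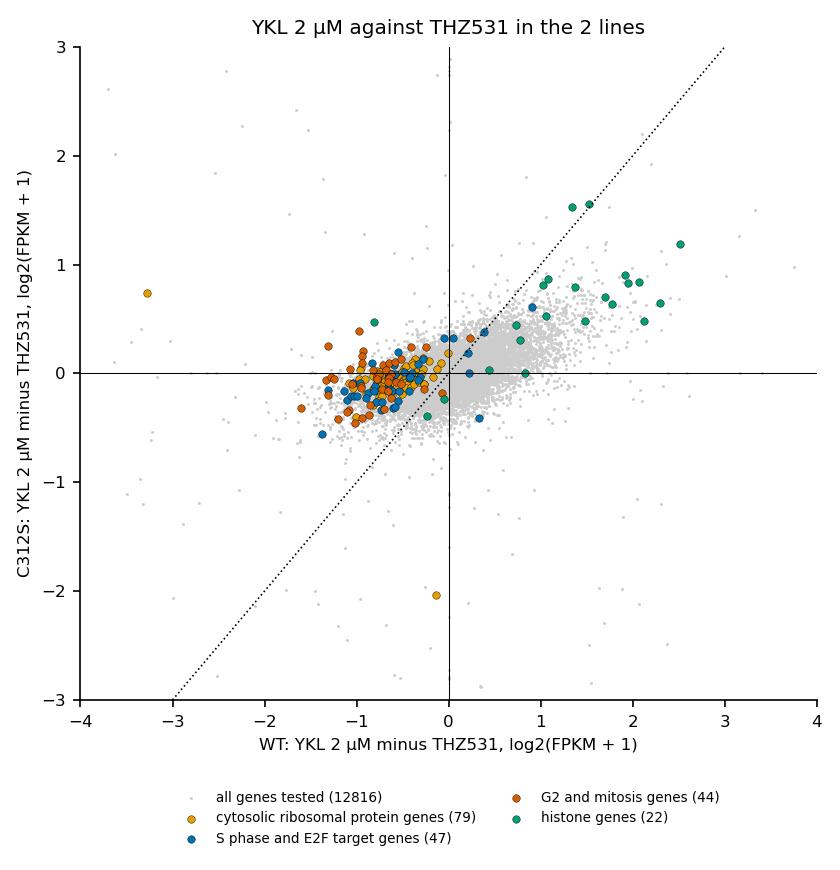
Difference between YKL 2 µM and THZ531 in WT (x axis) and in C312S (y axis) for each of the 12816 genes tested, on log2(FPKM + 1), with 4 gene lists in colour and 39 genes beyond the axes; the dotted line marks equal differences. G2 and mitosis, S phase and ribosomal protein genes lie mostly to the left of 0 in WT and near 0 in C312S, and histone genes lie mostly to the right of 0 in WT and mostly above 0 in C312S.

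The balance of directions rests on the scale. FPKM were also scaled to equal sums, and to the spike-ins. With these, YKL over THZ531 was higher in C312S than in WT for 23.7% of 6856 and 23.4% of 3842 line-dependent genes, against 50.8% as deposited. The median over all genes moved by -0.18 and -0.14 (log2). In WT, 48.5% of called genes were higher with YKL as deposited, 71.3% of 8887 with equal sums and 31.4% of 7673 with spike-in scaling (shifts of 0.19 and -0.16). In C312S, 48.9% were higher as deposited, and 3.56% of 7840 with spike-in scaling, a shift of -0.31. The differences below are those of the deposited scale, where the median over all genes was -0.0028. A change of scale moves them too, by amounts that vary between genes. The list medians of line dependence moved by -0.20 to -0.13 with equal sums and by -0.16 to -0.081 with spike-in scaling.

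At the 2-fold limit, 256 genes (2%) depended on the line. In the 100 of these where YKL over THZ531 was higher in C312S, the median difference between YKL and THZ531 was -1.31 in WT and -0.13 in C312S, and 97 had the larger difference in WT. In the 156 where it was lower, it was 1.44 in WT and 0.23 in C312S, and 152 had the larger difference in WT. Between the lines themselves the median of the 100 was 1.29 under YKL and 0.053 under THZ531, and that of the 156 was -1.05 and 0.20. These genes were chosen on the same libraries, so their medians are a description. The plot of medians by gene list sets the lines side by side.

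**Figure D2:**
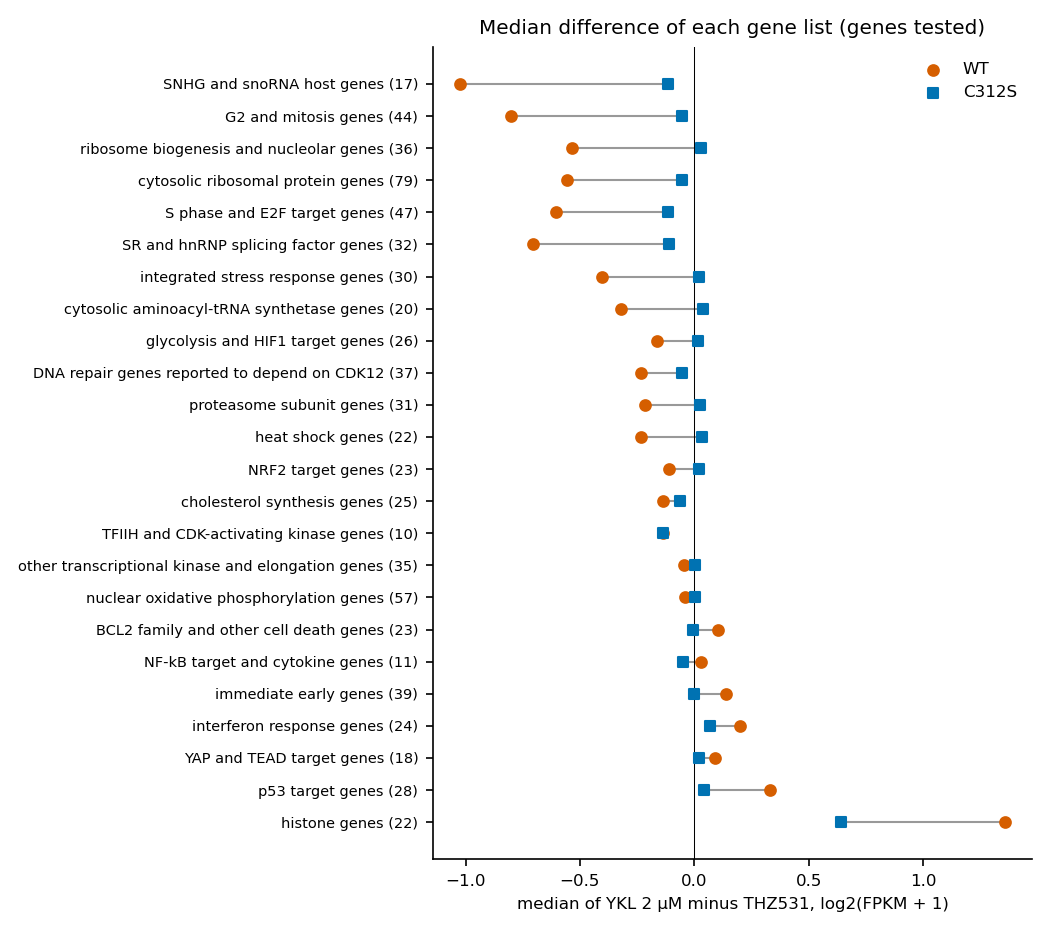
Median difference between YKL 2 µM and THZ531, log2(FPKM + 1), in WT (circles) and C312S (squares) for each list with at least 10 genes tested, ordered by the median line dependence of its members. The WT medians run from -1.02 for snoRNA host genes to 1.36 for histone genes, and the C312S medians from -0.14 for TFIIH genes to 0.64 for histone genes.

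Genes of G2 and mitosis were lower with YKL than with THZ531 in WT and differed less in C312S. All 44 members of the list were tested, and 41 were lower in WT (35.1% of all genes were) and 1 higher (33.1%), with a median of -0.80. In C312S 15 were lower (17.3% of all genes) and 6 higher (16.6%), with a median of -0.055. YKL over THZ531 was higher in C312S for 40 of them (24.8% of all genes) and lower for 0 (24%). The median of 0.73 was 0.53 with equal sums and 0.58 with spike-in scaling. KIF20A, a kinesin of the spindle midzone needed for cytokinesis, measured 67.4, 69.9 and 68.6 FPKM in WT with THZ531 and 25.9, 27.8 and 27.5 with YKL, and 61.4, 56.6 and 61.5 FPKM in C312S with THZ531 and 71.8, 77.1 and 65.9 with YKL. The WT libraries with YKL lay below all others, and the C312S libraries with YKL lay above those with THZ531. Its differences were -1.31 in WT and 0.25 in C312S, and the line dependence was 1.56 ± 0.060 (SE, adjusted p = 2.67e-19); with spike-in scaling the C312S difference was -0.083 and no longer passed. KIF2C, a microtubule-depolymerising kinesin of centromeres, measured 75.6, 78.4 and 78.2 FPKM in WT with THZ531 and 31.2, 31.1 and 31.7 with YKL, and 70.9, 66 and 72.5 FPKM in C312S with THZ531 and 68.3, 70.0 and 66.2 with YKL. With YKL, the WT libraries lay far below the other 9, among which those of WT with THZ531 were the highest, and the line dependence was 1.25 ± 0.061 (SE, adjusted p = 1.16e-16). NCAPH, a condensin I subunit that is outside the list, measured 19.6, 21.2 and 21.6 FPKM in WT with THZ531 and 4.03, 4.15 and 4.03 with YKL, and 21.3, 20.1 and 20.8 FPKM in C312S with THZ531 and 13.7, 14.4 and 13.1 with YKL. It was lower with YKL in both lines (-2.1 in WT and -0.56 in C312S), so that the line dependence of 1.54 ± 0.057 (SE, adjusted p = 1.61e-19) was one of size. The rest of the list is in the plot of G2 and mitosis genes. Chosen after its values were seen, TOP2A, the topoisomerase that decatenates chromosomes, had the largest WT difference of the list (-1.61, against -0.32 in C312S). CDC25B, a phosphatase that activates cyclin-dependent kinases and also chosen so, was the member higher in WT (0.24, against 0.33 in C312S), and its line dependence did not pass (95% interval, unadjusted as are those below, -0.055 to 0.24).

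**Figure D3:**
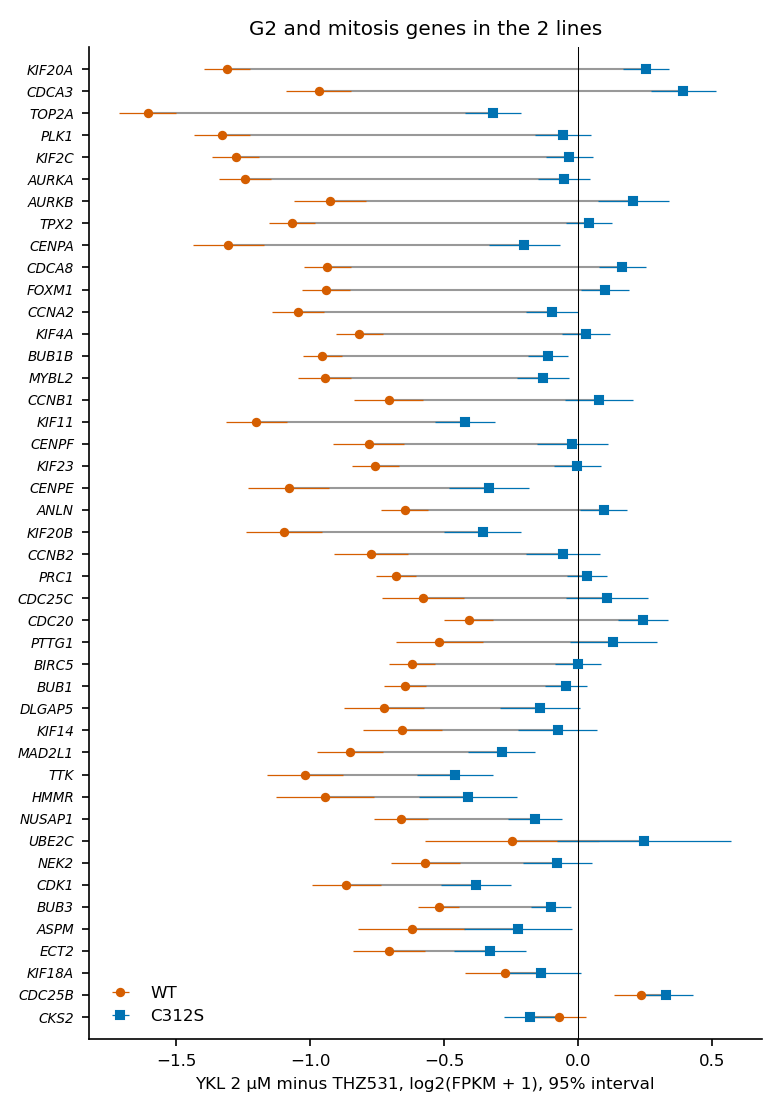
Difference between YKL 2 µM and THZ531, log2(FPKM + 1), with its 95% interval, for the 44 G2 and mitosis genes in WT (circles) and C312S (squares), ordered by line dependence. The WT values run from -1.61 to 0.24 and the C312S values from -0.46 to 0.39.

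S phase and E2F target genes were also mostly lower with YKL in WT. Of 47 tested, 40 were lower with YKL in WT (35.1% of all genes were) and 5 higher (33.1%), with a median of -0.61. In C312S 20 were lower (17.3% of all genes) and 7 higher (16.6%), with a median of -0.12. Line dependence was positive for 42 (24.8% of all genes) and negative for 3 (24%). Its median was 0.51 (0.31 with equal sums, 0.35 with spike-in scaling). MCM6, a subunit of the replicative helicase, measured 108, 113 and 111 FPKM in WT with THZ531 and 44.9, 41.8 and 45.1 with YKL, and 129.8, 117 and 127 FPKM in C312S with THZ531 and 112, 111 and 112 with YKL. All WT libraries with YKL lay below the other 9, and the C312S libraries with YKL lay below those with THZ531 by a smaller step. MCM7, of the same helicase, had means of 194 and 87.5 FPKM in WT and 226 and 202 FPKM in C312S. The line dependence was 1.16 ± 0.054 (SE, adjusted p = 3.9e-17) for MCM6 and 0.98 ± 0.060 (SE, adjusted p = 2.31e-14) for MCM7. E2F1, the transcription factor that drives these genes, differed less between lines: it had -0.44 in WT and -0.16 in C312S, a line dependence of 0.28 ± 0.098 (SE, adjusted p = 0.0202) that was 0.090 with equal sums and 0.12 with spike-in scaling, neither passing. It did not pass without C312S YKL replicate 2, WT THZ531 replicate 1 or WT YKL replicate 3 either (0.24 to 0.25). CCNE2, a cyclin that drives entry into S phase, went the other way. It measured 16.1, 15.5 and 16.6 FPKM in WT with THZ531 and 19.1, 21.5 and 20.7 with YKL, and 23.6, 25.6 and 25.5 FPKM in C312S with THZ531 and 17.2, 16.8 and 22 with YKL. It was higher with YKL in WT by 0.33 and differed by -0.41 in C312S (adjusted p = 0.000158), a line dependence of -0.74 ± 0.11 (SE, adjusted p = 2.24e-06). GINS4, a subunit of the GINS complex of the helicase, was higher with YKL in both lines, by 0.90 in WT and 0.61 in C312S.

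The promoters of these genes are known for E2F sites and for the CHR element with CCAAT boxes, so both were looked for in the 250 bases before the start site, on both strands. The letters searched for E2F were TTTCCCGC, TTTGGCGC, TTTCGCGC and TTTGCCGC, which can overlap on opposite strands; those for CHR were TTTGAA and those for CCAAT were CCAAT. RefSeq sequences (GRCh38.p14) were matched by symbol for 9485 of the 12816 genes, of which 4.66% held an E2F match, 7.92% a CHR match and 35.5% a CCAAT match. Of 39 S phase members with a sequence, 16 (41%) held an E2F match, 1 (2.56%) a CHR match and 22 (56.4%) a CCAAT match. Of 37 G2 and mitosis members, 19 (51.4%) held a CHR match, 30 (81.1%) a CCAAT match and 2 (5.41%) an E2F match. Over the other lists searched, the CCAAT share ran from 8.33% (YAP and TEAD targets) to 83.3% (cholesterol synthesis genes). The line dependence had a median of 0.63 over the 16 S phase genes with an E2F match and 0.50 over the 23 without. It was 0.72 over the 19 G2 and mitosis genes with a CHR match and 0.75 over the 18 without. The E2F matches of MCM6 and MCM7 are shown with the windows of KIF20A, which held CCAAT matches and none for CHR, and of CDCA8, a subunit of the chromosomal passenger complex picked after its values were seen as a list member with a CHR match (line dependence 1.1). Each is written 5′ to 3′ on the strand of its gene, with matches in capitals; an ATTGG is a CCAAT on the other strand.
MCM6 (chr2:135876444-135876693, minus strand): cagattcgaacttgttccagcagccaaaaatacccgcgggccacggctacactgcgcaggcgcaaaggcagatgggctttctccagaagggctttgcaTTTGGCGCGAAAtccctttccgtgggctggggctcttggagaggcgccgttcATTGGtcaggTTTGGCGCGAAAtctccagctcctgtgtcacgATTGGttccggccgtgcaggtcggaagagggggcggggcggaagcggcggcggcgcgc
MCM7 (chr7:100101398-100101647, minus strand): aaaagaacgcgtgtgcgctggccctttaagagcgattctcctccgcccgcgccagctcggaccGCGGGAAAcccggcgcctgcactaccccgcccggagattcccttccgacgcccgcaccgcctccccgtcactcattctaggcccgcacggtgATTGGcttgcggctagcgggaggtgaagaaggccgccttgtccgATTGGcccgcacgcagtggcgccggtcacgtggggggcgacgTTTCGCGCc
KIF20A (chr5:138178862-138179111, plus strand): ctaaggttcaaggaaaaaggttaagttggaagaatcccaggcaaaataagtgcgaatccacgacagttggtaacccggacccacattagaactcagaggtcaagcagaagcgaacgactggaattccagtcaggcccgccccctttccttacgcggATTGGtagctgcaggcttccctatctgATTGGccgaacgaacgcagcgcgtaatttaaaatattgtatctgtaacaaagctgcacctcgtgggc
CDCA8 (chr1:37692266-37692515, plus strand): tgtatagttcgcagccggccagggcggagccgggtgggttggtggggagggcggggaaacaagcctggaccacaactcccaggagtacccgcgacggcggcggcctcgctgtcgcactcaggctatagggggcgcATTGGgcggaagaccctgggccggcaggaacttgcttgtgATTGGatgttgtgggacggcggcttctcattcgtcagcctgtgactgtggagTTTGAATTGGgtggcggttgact

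The largest negative values among the genes named were those of MXD4, PNRC1 and SESN3. MXD4, a MAX partner that represses MYC targets, measured 3.31, 2.92 and 2.78 FPKM in WT with THZ531 and 19, 19.9 and 18.5 with YKL, and 3.21, 2.8 and 2.84 FPKM in C312S with THZ531 and 2.85, 2.44 and 2.62 with YKL. The WT libraries with YKL stood apart, and the other 9 lay together. The difference in C312S was -0.12 (interval -0.29 to 0.054) against 2.33 in WT, a line dependence of -2.45 ± 0.12 (SE, adjusted p = 1.18e-16). PNRC1, a nuclear receptor coactivator reported to curb ribosome production, measured 3.82, 3.72 and 3.81 FPKM in WT with THZ531 and 17.9, 20.2 and 20.6 with YKL, and 3.12, 3.88 and 2.41 FPKM in C312S with THZ531 and 2.68, 2.17 and 2.49 with YKL. SESN3, a sestrin that restrains mTORC1, measured 3.38, 3.45 and 2.94 FPKM in WT with THZ531 and 17, 14.8 and 16.4 with YKL, and 2.41, 2.25 and 2.2 FPKM in C312S with THZ531 and 1.73, 1.56 and 2.12 with YKL. In both, the WT libraries with YKL were the high ones. In C312S, SESN3 was lower with YKL (-0.23), and PNRC1 had -0.25, which did not pass (adjusted p = 0.0617). The line dependence was -2.35 ± 0.15 (SE, adjusted p = 3.34e-14) for PNRC1 and -2.24 ± 0.11 (SE, adjusted p = 1.84e-16) for SESN3. CCNG2, a cyclin expressed in arrested cells, was higher with YKL in WT (1.3) and lower in C312S (-0.32). Its line dependence was -1.62 ± 0.10 (SE, adjusted p = 3.35e-14).

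**Figure D4:**
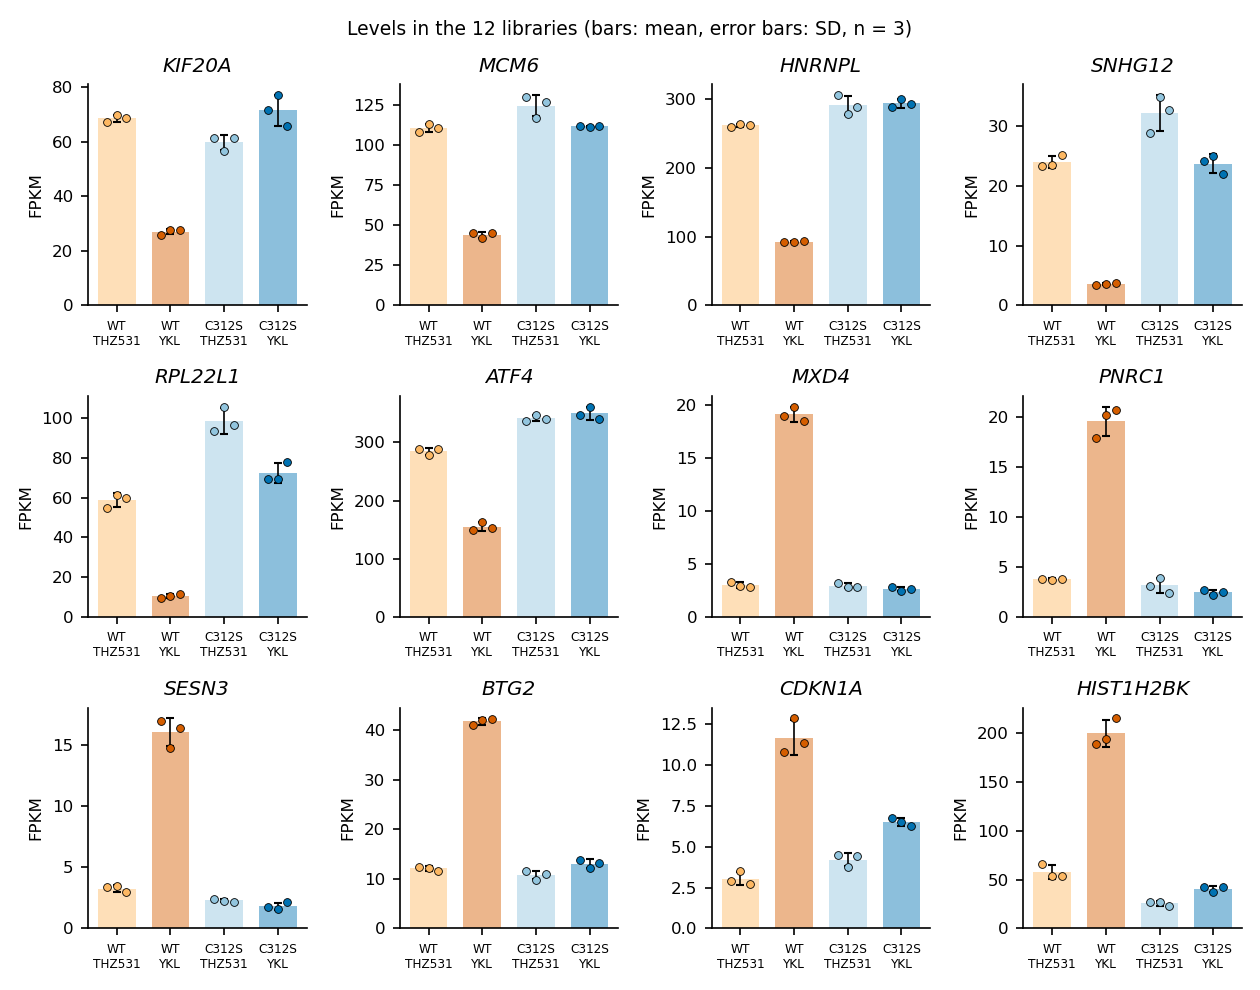
FPKM of 12 genes in the 12 libraries, with bars for the mean and error bars for the SD (n = 3) of WT (orange) and C312S (blue) with THZ531 (pale) and YKL 2 µM (dark). The WT libraries with YKL stand apart from the other 9 in each panel, low in the 6 genes from KIF20A to ATF4 and high in the 6 from MXD4 to HIST1H2BK.

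More targets of p53 were higher than lower with YKL in WT. Of 28 tested, 16 were higher with YKL in WT and 4 lower (33.1% and 35.1% of all genes; median 0.33), and in C312S 6 were higher and 5 lower (median 0.044, which was -0.26 with spike-in scaling), near the 16.6% and 17.3% of all genes. Line dependence was negative for 15 (24% of all genes) and positive for 3 (24.8%), with a median of -0.26. CDKN1A, which encodes the CDK inhibitor p21, measured 2.89, 3.49 and 2.74 FPKM in WT with THZ531 and 10.8, 12.9 and 11.4 with YKL, and 4.47, 3.73 and 4.45 FPKM in C312S with THZ531 and 6.74, 6.51 and 6.24 with YKL. It was higher with YKL in both lines, by 1.65 in WT and 0.53 in C312S, with no overlap of the libraries in either, and the C312S difference was 0.25 and did not pass with spike-in scaling. BTG2, an antiproliferative regulator of mRNA decay, measured 12.5, 12.2 and 11.6 FPKM in WT with THZ531 and 41.1, 42.2 and 42.3 with YKL, and 11.5, 9.82 and 11 FPKM in C312S with THZ531 and 13.8, 12.2 and 13.2 with YKL. The WT libraries with YKL were the high ones, and the line dependence was -1.45 ± 0.087 (SE, adjusted p = 1.19e-14), against -1.12 ± 0.14 (SE, adjusted p = 4.58e-08) for CDKN1A. AEN, an exonuclease of the p53 response, and TRIAP1, a mitochondrial survival factor, went the other way, with a line dependence of 0.60 and 0.70.

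Histone genes had the largest C312S median of the lists in the plot of medians. Of 31 listed, 22 passed the filter on low values. They are genes of the replication-dependent clusters, whose mRNA normally lacks a poly(A) tail, and a few others, and their near-identical copies make each row uncertain. With YKL 18 were higher in WT (33.1% of all genes were) and 1 lower (35.1%), with a median of 1.36. In C312S 13 were higher (16.6% of all genes) and 0 lower (17.3%), with a median of 0.64 (0.45 with spike-in scaling). Negative line dependence was found for 10 (24% of all genes), positive for 1 (24.8%) and neither for 11, with a median of -0.55. HIST1H2BK, an H2B gene, measured 65.9, 53.7 and 54 FPKM in WT with THZ531 and 189, 194 and 216 with YKL, and 27.4, 26.5 and 22.9 FPKM in C312S with THZ531 and 42.1, 36.8 and 42.4 with YKL. Both lines were higher with YKL without overlap, and WT was higher than C312S with either compound. The difference was 1.77 in WT and 0.64 in C312S. HIST2H2BE, another H2B gene, had 1.7 in WT and 0.70 in C312S. HIST1H2BJ, chosen after its values were seen, measured 7.76 ± 2.38 and 23.6 ± 0.757 FPKM (SD, n = 3) in WT with THZ531 and YKL, and 3.75 ± 0.497 and 13.1 ± 2.62 in C312S. Its line dependence was 0.035, with an interval of -0.53 to 0.60 that leaves room for a sizeable difference either way. With YKL at 500 nM the line dependence of HIST1H2BJ was -1.57 (limma, adjusted p = 2.61e-05), with 1.87 in WT and 0.30 in C312S. H2AFX, whose product marks DNA breaks when phosphorylated and which has a polyadenylated transcript of its own, was the member that fell on the other side. It measured 126, 117 and 120.1 FPKM in WT with THZ531 and 68.2, 72.2 and 65.1 with YKL, and 123, 135 and 121 FPKM in C312S with THZ531 and 178, 177 and 173 with YKL. It was lower with YKL in WT (-0.81) and higher in C312S (0.47, 0.14 and not passing with spike-in scaling), a line dependence of 1.29 ± 0.094 (SE, adjusted p = 1.22e-12).

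Genes of the translation apparatus were lower with YKL in WT, and few of them differed in C312S. Of 79 cytosolic ribosomal protein genes, 74 were lower in WT (35.1% of all genes were) and 0 higher (33.1%), with a median of -0.56. In C312S 9 were lower (17.3% of all genes) and 0 higher (16.6%), with a median of -0.054 (-0.40 with spike-in scaling). For 71 the line dependence was positive (24.8% of all genes) and for 0 negative (24%). Its median was 0.52 (0.32 with equal sums, 0.36 with spike-in scaling). RPL23A, a protein of the large subunit at the exit tunnel, measured 585, 606 and 628 FPKM in WT with THZ531 and 301, 307 and 324 with YKL, and 718, 583 and 723 FPKM in C312S with THZ531 and 683, 718 and 662 with YKL. The WT libraries with YKL were the low ones, and the C312S groups overlapped. RPL22L1, a paralog of RPL22 outside the list, measured 54.8, 61.6 and 59.9 FPKM in WT with THZ531 and 9.32, 10.5 and 11.4 with YKL, and 93.7, 106 and 96.5 FPKM in C312S with THZ531 and 69.4, 69.3 and 78.2 with YKL. YKL went with the lower level in both lines, by far more in WT, with a line dependence of 1.95 ± 0.13 (SE, adjusted p = 2e-13). Many ribosomal protein genes have processed pseudogenes, and the way reads were shared out between such copies is not given in these sources.

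Host genes of small nucleolar RNAs, which carry in their introns the RNAs that guide rRNA modification, had the largest median of the lists. Of 17 tested, 15 were lower with YKL in WT (35.1% of all genes were), with a median of -1.02. In C312S 5 were lower (17.3% of all genes) and 2 higher (16.6%), with a median of -0.12. Positive line dependence was found for 13 (24.8% of all genes) and negative for 1 (24%), with a median of 0.99 over all 17. SNHG12 measured 23.3, 23.5 and 25.1 FPKM in WT with THZ531 and 3.38, 3.62 and 3.7 with YKL, and 28.9, 34.9 and 32.6 FPKM in C312S with THZ531 and 24.2, 25 and 21.9 with YKL. SNHG4 measured 23.4, 25.4 and 25.2 FPKM in WT with THZ531 and 5.42, 5.52 and 5.58 with YKL, and 32.1, 32.2 and 34.2 FPKM in C312S with THZ531 and 27.6, 27.4 and 26.7 with YKL. In both, the WT libraries with YKL lay far below the rest, and the line dependence was 2.03 ± 0.12 (SE, adjusted p = 1.21e-14) and 1.72 ± 0.13 (SE, adjusted p = 1.36e-12). SNHG16 followed with 1.37. The exception was SNHG6 (-0.33, chosen after its values were seen), which had -0.30 in WT and -0.64 in C312S.

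Ribosome biogenesis genes had 30 of 36 members with a positive line dependence and 0 with a negative one (median 0.53). Over all genes these shares were 24.8% and 24%, and the other lists of this paragraph stand against them too. In WT 32 of the 36 were lower with YKL and 1 higher (35.1% and 33.1% of all genes). In C312S 7 were lower and 4 higher (17.3% and 16.6% of all genes). NOLC1, a nucleolar chaperone of small nucleolar RNPs, had -0.37 in WT and 0.074 in C312S, a line dependence of 0.44 ± 0.032 (SE, adjusted p = 6.54e-13) that was 0.28 and did not pass with spike-in scaling. Cytosolic aminoacyl-tRNA synthetases, which charge tRNAs, had a positive line dependence in 17 of 20 and a negative one in 0. Their median of 0.30 was 0.10 with equal sums. AARS, the alanine enzyme, led them with 0.55 ± 0.051 (SE, adjusted p = 2.24e-10), which was 0.39 and did not pass with spike-in scaling (adjusted p = 0.0549). The integrated stress response list, whose ATF4 programme includes these enzymes, had a positive line dependence in 19 of 30 and a negative one in 4 (median 0.36). ATF4, its transcription factor, measured 288, 278 and 288 FPKM in WT with THZ531 and 149, 164 and 152 with YKL, and 337, 347 and 340.5 FPKM in C312S with THZ531 and 348, 362 and 340.4 with YKL. The C312S groups overlapped, and WT was lower with YKL without overlap. Line dependence reached 0.91 ± 0.057 (SE, adjusted p = 4.41e-14) for ATF4 and 1.09 ± 0.087 (SE, adjusted p = 8.06e-12) for ATF5, a related factor. DDIT4, an mTORC1 inhibitor, went the other way with 0.67 in WT and -0.21 in C312S (line dependence -0.88), and SLC38A2, an amino acid transporter, had -0.061 in WT and -0.46 in C312S.

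Splicing factor genes of the SR and hnRNP families were lower with YKL in WT for 26 of 32 and higher for 2 (median -0.70). Over all genes 35.1% were lower in WT and 33.1% higher. In C312S 18 were lower and 2 higher (17.3% and 16.6% of all genes), with a median of -0.11. The line dependence was positive for 24 (24.8% of all genes) and negative for 0 (24%), with a median of 0.49. HNRNPL, which binds CA-rich RNA, measured 259.8, 264 and 262 FPKM in WT with THZ531 and 92, 92.7 and 93.5 with YKL, and 306, 278 and 289 FPKM in C312S with THZ531 and 288, 301 and 293 with YKL. The WT libraries with YKL were the low ones and the C312S groups overlapped, for a line dependence of 1.5 ± 0.049 (SE, adjusted p = 1.42e-20). HNRNPA1P10, a processed pseudogene of HNRNPA1, had the largest value of the genes named. It measured 128, 163 and 166 FPKM in WT with THZ531 and 19.2, 12.2 and 11.6 with YKL, and 220.0, 107 and 169 FPKM in C312S with THZ531 and 219.7, 244 and 175 with YKL. Its reads cannot be told from those of HNRNPA1 and its other copies, so this row is uncertain.

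Among the transcriptional kinases, CDK12 depended on the line and CDK13 did not pass. CDK12 measured 27, 28.5 and 26.2 FPKM in WT with THZ531 and 16.2, 14.8 and 15.3 with YKL, and 26, 23.9 and 23.8 FPKM in C312S with THZ531 and 21.2, 21.4 and 21.6 with YKL. It was lower with YKL in both lines (-0.78 in WT and -0.19 in C312S), a line dependence of 0.59 ± 0.079 (SE, adjusted p = 2.5e-07) that was 0.45 and did not pass with spike-in scaling (adjusted p = 0.0574). CDK13 measured 11.8, 12.3 and 11.1 FPKM in WT with THZ531 and 10.5, 9.7 and 10.3 with YKL, and 11.3, 11 and 10.3 FPKM in C312S with THZ531 and 9.21, 9.27 and 10.1 with YKL. Its line dependence was 0.014, with an interval of -0.15 to 0.18 (adjusted p = 0.901). CDK7, whose 12 values stand above, was lower with YKL in both lines (-0.55 in WT and -0.32 in C312S). The line dependence of 0.23 ± 0.078 (SE, adjusted p = 0.0152) was 0.035 with equal sums and 0.075 with spike-in scaling, neither passing, and it did not pass without C312S THZ531 replicate 1 (0.20) or WT YKL replicate 2 (0.19).

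All 10 listed genes of TFIIH and the CDK-activating kinase, CDK7 among them, were tested. In WT 5 were lower with YKL and 0 higher, against 35.1% and 33.1% of all genes. In C312S 4 were lower and 1 higher, against 17.3% and 16.6%. Line dependence was positive for 3 and negative for 1, or 40% called against 48.7% of all genes. The median line dependence was 0.12, and it was -0.074 with equal sums and -0.035 with spike-in scaling. GTF2H3, a TFIIH core subunit, had 0.22, which did not pass with either scaling (0.029 and 0.065) or without C312S YKL replicate 2 (0.19). The helicase ERCC3, which opens promoter DNA, had 0.18 as deposited and -0.014 with equal sums and 0.026 with spike-in scaling, neither passing, while the helicase ERCC2 had -0.35. Of 35 other transcriptional kinase and elongation genes, 12 had a positive line dependence and 7 a negative one. Called were thus 54.3%, against 48.7% of all genes (24.8% positive and 24% negative). Their median of 0.038 was -0.16 with equal sums and -0.12 with spike-in scaling. NELFE, an RNA-binding subunit of the pausing factor NELF, measured 25.1, 26 and 26 FPKM in WT with THZ531 and 73.9, 85.7 and 81.3 with YKL, and 33.8, 35.1 and 35.5 FPKM in C312S with THZ531 and 59.7, 58.5 and 53.9 with YKL. It was higher with YKL in both lines without overlap, by 1.6 in WT and 0.70 in C312S. CDK9, the kinase that releases paused polymerase, was higher with YKL in WT (0.56) and not past the test in C312S (-0.0040, interval -0.14 to 0.13). LEO1, a subunit of the PAF1 elongation complex, and LARP7, which stabilises 7SK RNA, went the other way with a line dependence of 0.74 and 0.65.

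Among the DNA repair genes that have been tied to CDK12, more were lower than higher with YKL in WT. Of 37, 23 were lower with YKL than with THZ531 in WT and 5 higher, against 35.1% and 33.1% of all genes. In C312S 13 were lower and 5 higher, against 17.3% and 16.6%. A positive line dependence was found for 18 (24.8% of all genes) and a negative one for 3 (24%). The median of 0.19 was 0.00018 with equal sums and 0.041 with spike-in scaling. FANCA, of the Fanconi anaemia core complex, measured 21.7, 23.4 and 22.8 FPKM in WT with THZ531 and 7.9, 7.91 and 7.7 with YKL, and 19.2, 19.6 and 18.4 FPKM in C312S with THZ531 and 12.6, 12.4 and 12.4 with YKL. Both lines had less of it with YKL, without overlap (-1.42 in WT and -0.58 in C312S). MSH6, of mismatch repair, had -0.96 in WT and -0.13 in C312S. TERF2, a protein of telomeres, was higher with YKL in both lines (0.48 in WT and 0.22 in C312S), and its C312S difference was -0.10 and did not pass with spike-in scaling.

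MYC, the transcription factor of growth, measured 139.7, 135 and 135 FPKM in WT with THZ531 and 77.8, 88.1 and 82.3 with YKL, and 136, 131 and 121 FPKM in C312S with THZ531 and 113, 117 and 110.4 with YKL. YKL libraries lay below THZ531 libraries in both lines (-0.72 in WT and -0.19 in C312S), for a line dependence of 0.53 ± 0.075 (SE, adjusted p = 7.35e-07) that was 0.37 and did not pass with spike-in scaling. Of 39 immediate early genes, 5 had a positive line dependence and 12 a negative one. Called were thus 43.6%, against 48.7% of all genes (24.8% positive and 24% negative). CYR61, a matricellular target of YAP, had means of 40.7 and 101 FPKM in WT with THZ531 and YKL and 26 and 30.6 FPKM in C312S, a line dependence of -1.06 ± 0.065 (SE, adjusted p = 2.26e-14). IER5, an early gene that activates HSF1, had -0.48 in WT and -0.012 in C312S, a line dependence of 0.47 that was 0.35 and did not pass with spike-in scaling. Of 23 NRF2 targets, 10 had a positive line dependence and 5 a negative one (24.8% and 24% of all genes). Their median of 0.18 was -0.019 with equal sums. NQO1, a quinone reductase, measured 24, 24.6 and 24.1 FPKM in WT with THZ531 and 57.9, 55.1 and 55.3 with YKL, and 33.5, 32.9 and 33.5 FPKM in C312S with THZ531 and 45.2, 42.7 and 43.6 with YKL. It was higher with YKL in both lines without overlap, by 1.18 in WT and 0.39 in C312S (0.053 and not passing with spike-in scaling). EPHX1, an epoxide hydrolase, had 0.43 in WT and -0.14 in C312S. SRXN1 and PGD, which regenerate peroxiredoxins and NADPH, had a positive line dependence of 0.68 and 0.52.

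Of 23 BCL2 family and cell death genes, 2 had a positive line dependence and 6 a negative one. Called were thus 34.8%, against 48.7% of all genes (24.8% positive and 24% negative). MCL1, a short-lived survival protein, differed by 0.012 in WT and -0.17 in C312S, and the line dependence of -0.18 ± 0.070 (SE, adjusted p = 0.0295) did not pass in 5 of the 12 fits that left out 1 library (from -0.15 to -0.17 in those) or with spike-in scaling (-0.34). BCL2L2, which encodes BCL-w, had 0.59, and BIRC2, an inhibitor of apoptosis, had -0.44.

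The other genes with the largest negative values serve several functions. TLCD1, a membrane protein that bears on phospholipid composition, measured 3.43, 3.47 and 2.52 FPKM in WT with THZ531 and 38.3, 43.3 and 39.5 with YKL, and 5.05, 4.13 and 3.93 FPKM in C312S with THZ531 and 15.4, 13.5 and 13.7 with YKL. It was higher with YKL in both lines without overlap, by 3.33 in WT and 1.51 in C312S. PCYOX1L, a prenylcysteine oxidase relative, measured 4.24, 4.44 and 3.82 FPKM in WT with THZ531 and 25.5, 27.1 and 26.6 with YKL, and 5.2, 5.4 and 5.09 FPKM in C312S with THZ531 and 8.08, 8.01 and 8.13 with YKL. TRAPPC6A, of a vesicle-tethering complex, had means of 4.34 and 22.6 FPKM in WT and 5.82 and 7.4 FPKM in C312S. In each, WT with YKL was the highest group. CTSO, a lysosomal protease, had means of 0.396 and 5.93 FPKM in WT and 0.641 and 1.16 FPKM in C312S. C18orf32 varied more between libraries and measured 2.77, 2.4 and 2.0 FPKM in WT with THZ531 and 13.3, 15 and 11.6 with YKL, and 3.79, 5.43 and 8.68 FPKM in C312S with THZ531 and 3.36, 6.36 and 5.83 with YKL. Their line dependence was -1.82, -1.87, -1.84, -1.91 and -2.22.

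Among the largest positive values, CRYAB, a small heat shock protein of the alpha-crystallin family, rests on its level in 1 line. It measured 22.8, 20.1 and 20.1 FPKM in WT with THZ531 and 6.79, 7.47 and 6.34 with YKL, and 1.24, 1.14 and 1.3 FPKM in C312S with THZ531 and 1.78, 1.34 and 1.33 with YKL. C312S was near 1 FPKM with either compound and WT was not, so the pseudocount of 1 leaves little room for a difference in C312S (0.15, interval -0.16 to 0.46). LOC729739 measured 10.7, 9.49 and 9.49 FPKM in WT with THZ531 and 1.84, 2.03 and 1.51 with YKL, and 11.2, 7.91 and 10.2 FPKM in C312S with THZ531 and 7.31, 7.62 and 7.16 with YKL. It was lower with YKL in WT (-1.97), and the C312S difference of -0.35 did not pass (adjusted p = 0.107), for a line dependence of 1.61 ± 0.24 (SE, adjusted p = 1.53e-06).

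Not every difference between the compounds depended on the line. In both lines in 1 direction, 3064 genes passed, and for 1456 of these the line dependence did not pass: 715 were higher with YKL and 741 lower. A line dependence that misses the threshold does not show that the lines were alike, so intervals are given for some genes with large C312S differences, chosen after their values were seen. TCTA had 0.93 in WT and 0.94 in C312S, with an interval of the line dependence of -0.15 to 0.17. YEATS4, a reader of acetylated histones, was lower with YKL (-1.13 in WT and -0.82 in C312S), with an interval of 0.023 to 0.58. CLEC2B, a C-type lectin, was lower too (-1.12 in WT and -0.97 in C312S), with an interval of -0.11 to 0.41. With YKL at 500 nM, against the same THZ531 libraries, the line dependence did pass for TCTA (-0.47), YEATS4 (0.81) and CLEC2B (0.41).

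Set against each other under 1 compound, the lines differed in 8471 genes (66.1%) with YKL and in 3900 (30.4%) with THZ531. By at least 2-fold they differed in 447 genes (3.49%) with YKL and 127 (0.991%) with THZ531. Under YKL 51.2% of called genes were higher in C312S as deposited and 20.1% of 9258 with equal sums (a shift of -0.26); under THZ531 it was 55.8%, 25.6% of 4360 and, with spike-in scaling, 77.4% of 2313. For G2 and mitosis genes the median of C312S minus WT was 0.64 with YKL and -0.11 with THZ531. S phase genes had 0.69 and 0.18, ribosomal protein genes 0.69 and 0.18, and histone genes -1.0 and -0.29. The lines were not level under THZ531: HIST1H2BK stood at -1.14 and CRYAB at -3.3 there, while MXD4 stood at -0.019 (interval -0.19 to 0.15) and -2.47 under YKL.

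At 500 nM of YKL the same contrast, which shares the 6 THZ531 libraries, gave 5960 line-dependent genes (46.5%; 23.5% higher and 23% lower), of which 280 (2.18%) reached 2-fold. As deposited the line dependence was positive for 50.6% of the 5960. It was positive for 28.5% of 6113 with equal sums and 83.3% of 4626 with spike-in scaling (shifts of -0.12 and 0.23). In WT 8601 genes (67.1%) differed from THZ531, 32.8% of all genes being higher with YKL and 34.3% lower, and 614 (4.79%) reached 2-fold. In C312S 3332 (26%) differed, 12.8% higher and 13.2% lower, and 8 (0.0624%) reached 2-fold. G2 and mitosis genes had a median line dependence of 0.49 at 500 nM and 0.73 at 2 µM, S phase genes 0.44 and 0.51, and snoRNA host genes 0.96 and 0.99. Histone genes had -1.08 at 500 nM, and their C312S median was 0.22 there and 0.64 at 2 µM. KIF20A had 0.83 at 500 nM and 1.56 at 2 µM, and CDKN1A had -1.6 and -1.12. MXD4 had -1.96 and -2.45, and SNHG12 had 1.85 and 2.03. The values at both doses stand side by side with no test between them in the plot by dose. They are those of the deposited scale. Spike-in scaling moved the median over all genes by 0.23 at 500 nM and by -0.14 at 2 µM, so the order of the doses may depend on the scale.

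**Figure D5:**
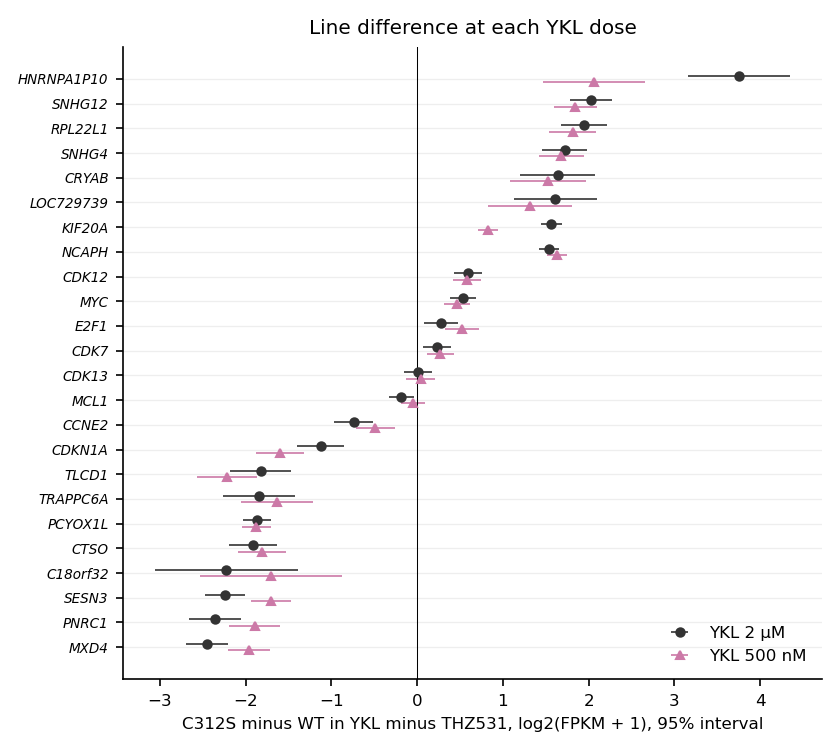
Line dependence (C312S minus WT) of YKL over THZ531, log2(FPKM + 1), with its 95% interval at 2 µM (circles) and 500 nM (triangles) for the 16 genes named for the largest values at 2 µM and the 8 genes named whatever their values. Both doses use the same THZ531 libraries, and the 500 nM intervals of MCL1 and CDK13 include 0. All values are those of the deposited scale.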

How the data were processed

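Polyadenylated RNA of 42 libraries in 14 groups of 3 was measured, and 12 libraries in 4 groups form the comparison. The values are FPKM per gene as the authors deposited them; HISAT2 2.0.4, Cufflinks 2.2.1, Cuffnorm and the build hg19 are named in the submitters' processing notes, with no roles. Filters and the normalization setting are not given in the sources used here. Counts of reads were not used, and low values did not settle on whole multiples of 1 read (6.03% to 15.4% of ratios within 0.02 log2 of 1 step), so depth is unknown and an exact 0 can be a failed estimate. Groups came from the treatment and line labels, and 0 columns were left unmatched. A gene was tested if 3 libraries or more had 1 FPKM or more, which left 12816 genes (226 short RNA rows). They were tested with limma 3.58.1 (R 4.3.3) on log2(FPKM + 1), a scale that understates the change of low genes: 14 group means over all 42 libraries, variances with an expression trend, and p adjusted by Benjamini-Hochberg, called under 0.05, two-sided. Intervals are 95% and unadjusted. The script was tested on simulated data. Libraries of 1 group correlated at 0.970 to 0.979, and 0 pairs were identical.

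The members of the 27 gene lists, the rule for genes and the comparison were chosen with earlier results of these data known; the lists get counts and medians, no set test. The list of mitochondrially encoded genes had 0 members in the table. Named were, of called genes with a mean of at least 5 FPKM in 1 group, no exact 0, no short RNA row and all 9 library differences of 1 line above the 9 of the other, the 8 largest each way and per list up to 2 (main lists) or 1 (others) each way with the smallest p, and 8 genes whatever their values: MYC, MCL1, E2F1, CCNE2, CDKN1A, CDK7, CDK12 and CDK13. That made 76 genes. Alternatives were the pseudocount (0.1), filters, other scalings, the 12 libraries alone, a replicate block, each library left out and, chosen after seeing the data, removal of GC and length trends, of genes with an exact 0 and of short RNA rows. Transcript GC content came from GENCODE v29. Plots were drawn with Python 3.11.15 and matplotlib 3.10.9. Some genes that these rules would name are not reported here.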

Additional observations from a re-analysis of the deposited data

Results flagged for a closer look

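The difference between YKL 2 µM and THZ531 was not the same in the lines, by the limma test of the difference itself, for 6246 genes, and 402 of these passed in both lines in opposite directions. Of the genes named, 10 are of this second kind. KIF20A, the midzone kinesin, had a line dependence of 1.56. The DnaJ chaperone DNAJA1 had 0.57, with -0.45 in WT and 0.12 in C312S. BST2, an interferon-induced antiviral protein, had 0.44, and NOLC1 and AARS had 0.44 and 0.55. H2AFX had 1.29. Negative values were those of SESN3 (-2.24), CCNG2 (-1.62), CCNE2 (-0.74) and EPHX1 (-0.57). With spike-in scaling the C312S difference of KIF20A, DNAJA1, BST2, NOLC1 and AARS was -0.083, -0.22, -0.088, -0.27 and -0.25, no longer above 0, and the line dependence of BST2, NOLC1 and AARS (0.28, 0.28 and 0.39) did not pass. The C312S difference of SESN3, CCNG2, CCNE2 and EPHX1 was -0.52, -0.61, -0.75 and -0.47.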

How the results depend on the processing

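With spike-in scaling, 3842 genes depended on the line, 7840 differed between the compounds in C312S and 2313 differed between the lines under THZ531. The line-dependent genes that passed in WT alone were then 1540, those in C312S alone 915, those in both in 1 direction 924 and those in neither 72. The cause was not tested. Leaving out 1 library at a time gave 5751 to 6079 line-dependent genes. Those that passed in C312S alone ranged from 282 to 518, and those in opposite directions from 243 to 452. ERCC3 changed sign with equal sums (-0.014) and did not pass there.

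Same-numbered libraries of different groups correlated in their deviations at -0.12 to 0.17, with 3 of 18 pairs over 0.1. Libraries with different numbers correlated at -0.11 to 0.16. No pairing by replicate number was seen, which does not exclude one. The fit with the replicate number as a block called 6190 genes, and 76 of the 76 named genes kept their side of the threshold. All 76 kept it too with a pseudocount of 0.1, without the filter, with the filter at 5 FPKM, with the 12 libraries alone, with median-ratio scaling, and without rows holding an exact 0 or short RNA rows. With GC and length trends removed, 6731 genes were called and 75 of the 75 named genes with a value kept it. With equal sums 5 lost the call, ERCC3 among them, and with spike-in scaling 12 lost it. Depth is unknown, so intervals cover the spread between libraries alone. In a table without counts, a gene near 1 FPKM has its difference held down by the pseudocount.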

Other observations

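YKL over THZ531 was higher in C312S than in WT (a positive line dependence) for 24.8% of all genes tested and lower (a negative one) for 24%. The counts of the further lists are of line dependence and stand against these shares. Of 26 glycolysis and HIF1 target genes, 15 had a positive line dependence and 5 a negative one (median 0.23, 0.026 with equal sums). HK2, a hexokinase, measured 26.4, 26.1 and 25.7 FPKM in WT with THZ531 and 13.8, 12.8 and 12.4 with YKL, and 25, 23.8 and 24.1 FPKM in C312S with THZ531 and 23.2, 22.1 and 22.8 with YKL. WT with YKL was the low group, with a line dependence of 0.86 ± 0.070 (SE, adjusted p = 1.45e-11). BNIP3, a mitophagy receptor, had -0.26, with -0.087 in WT and -0.35 in C312S. Of 31 proteasome subunit genes, 18 had a positive line dependence and 1 a negative one. Their median of 0.19 was -0.011 with equal sums. PSMD11 and PSMC4, both of the 19S particle, had 0.53 and -0.26. Of 57 nuclear oxidative phosphorylation genes, 13 had a positive line dependence and 9 a negative one. That called share of 38.6% lies below the 48.7% of all genes. UQCRC2, of complex III, had 0.58, and NDUFB5, of complex I, had -0.77.

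Of 22 heat shock genes, 11 had a positive line dependence and 3 a negative one. Their median of 0.19 was -0.0086 with equal sums. HSPA1A, the inducible HSP70, measured 18.3, 16.8 and 15.6 FPKM in WT with THZ531 and 39.6, 43.3 and 36.9 with YKL, and 18.1, 23 and 18.5 FPKM in C312S with THZ531 and 22.2, 21.4 and 21.5 with YKL. It was higher with YKL in WT (1.19) and had 0.13 in C312S, which did not pass (interval -0.079 to 0.34); it has a near-identical copy, HSPA1B. Of 25 cholesterol synthesis genes, 11 had a positive line dependence and 6 a negative one. Their median of 0.15 was -0.047 with equal sums and -0.0087 with spike-in scaling. TM7SF2, a sterol reductase, had -0.81. Of 24 interferon response genes, 6 had a positive line dependence and 6 a negative one, which is about the share over all genes. BST2 had 0.44, which did not pass with spike-in scaling (0.28), and TAP1, a peptide transporter, had -0.47. Of 11 NF-kB target and cytokine genes, 4 had a positive line dependence, 1 a negative one and 6 neither, with a median of -0.085. CCL2, a chemokine, had the largest value of this list, 1.14, with -1.25 in WT and -0.11 in C312S. Of 18 YAP and TEAD targets, 2 had a positive line dependence and 4 a negative one. AJUBA, a LIM protein of adhesion sites, had 0.34, which was 0.15 with equal sums and 0.20 with spike-in scaling, neither passing. The line dependence of 6 of 6 blood cell markers tested did not pass, and that of 2 of 7 epithelial and fibroblast markers was positive.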
